A study of Mus musculus with 36 samples.

Results

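Of the 252 X-linked genes with allelic measurements in the series, 57 start between 45 and 72.5 Mb of the mouse X chromosome (mm10) in at least 1 of the 2 deposited tables of allelic ratios. Membership is by start position alone, but the stretch was chosen with earlier results of these data known. Of these genes, 55 stand in both tables, Xpnpep2 stands only in the table without the K518E line, and Slitrk4 only in the table with it. According to the GENCODE vM21 annotation, 53 are protein coding, 3 are processed transcripts (Firre, Kis2 and C430049B03Rik) and BC023829 was not matched. They lie in 3 runs separated by stretches without a measured gene, namely 26 genes from Smarca1 to Mospd1 (47.8 to 53.4 Mb), 15 genes that begin with Zfp449 (at 56.3 Mb) and 15 genes from Fmr1 to Gabra3 (68.7 to 72.7 Mb), with Slitrk4 alone at 64.3 Mb.

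Chromatin-associated RNA (ChrRNA-seq) was sequenced in 36 libraries of XX mouse embryonic stem cells (mESCs) in which doxycycline (dox, 1 µg/ml) drives Xist from a TetOn promoter on the 129S X chromosome, so that the 129S copy becomes the inactive X (Xi) and the Cast copy stays active (Xa). The iXist-ChrX line is the parent. The SMCHD1 KO line was made in it, as was the Halo-SMCHD1 line, which carries an N-terminal Halo-tag on native SMCHD1. Halo-SMCHD1 cells also carry an eGFP-CIZ1 transgene that marks the Xi in imaging, as do the lines derived from them. LRIF1 KO cells lack LRIF1 in the Halo-SMCHD1 background, and 4 further lines carry a single amino acid change (E147A, Y353C, G137E or K518E) in tagged SMCHD1. Each derived line is 1 clone. Cells were uninduced, given dox for 24 h without differentiation, or differentiated in monolayer under dox for 5 or 7 days. There was 1 uninduced and one 24 h library for each of 6 lines (Halo-SMCHD1, LRIF1 KO, E147A, Y353C, G137E and K518E). Day 5 was sampled in 2 libraries each of Halo-SMCHD1, G137E and K518E. Day 7 was sampled in 3 libraries each of Halo-SMCHD1 and G137E and in 2 of each of the other 6 lines. One E147A day 7 column carries a replicate number that the labels do not use and is called the library without a matched number. The columns used for iXist-ChrX carry a clone name found in no label and were assigned to this line by elimination, since day and replicate number match and no other column names it. Replicates were independent repeats of the same clone, per the study's methods. For comparisons of lines, and of day 5 with day 7, p-values therefore measure the spread between repeats and not between clones. For the steps from uninduced to 24 h and from 24 h to day 7, they measure the spread over 5 lines of different genotype, each 1 clone.

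In X chromosome inactivation, Xist RNA spreads in cis over the chromosome from which it is made and its genes lose transcription over the following days as the silent state matures with differentiation. SMCHD1 is a chromosomal protein with a GHKL ATPase domain and an SMC hinge domain. It accumulates on the Xi as inactivation proceeds and keeps a subset of genes silent. LRIF1 is its partner at H3K9me3-marked heterochromatin. E147A abolishes ATP hydrolysis in vitro, whereas G137E and K518E raise it. A minority of X-linked genes escape inactivation, and Firre, a long noncoding RNA gene that anchors the Xi near the nucleolus, and Utp14a, needed for processing of small-subunit ribosomal RNA, are among those reported to do so in mouse.

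Promoter sequence was set beside the silencing of the genes because promoters differ widely in CpG content, which is high in most housekeeping genes. RefSeq (GRCm38.p6) gave a transcription start for 46 of the 57 genes. The 250 bases that lead up to the start in the RefSeq table are printed for 2 pairs of genes. The first 2 kept the largest share of their uninduced allelic fraction (defined below) at 24 h, and the other 2 kept the least. Sequences run 5′ to 3′ on the gene's strand, with each CG dinucleotide in capitals.
Utp14a (chrX:48256684-48256933, + strand): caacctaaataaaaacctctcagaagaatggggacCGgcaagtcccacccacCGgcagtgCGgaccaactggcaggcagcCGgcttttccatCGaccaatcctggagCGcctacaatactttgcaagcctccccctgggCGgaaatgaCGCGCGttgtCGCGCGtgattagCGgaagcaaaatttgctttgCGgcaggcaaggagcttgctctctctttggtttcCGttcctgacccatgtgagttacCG
Rbmx2 (chrX:48694754-48695003, + strand): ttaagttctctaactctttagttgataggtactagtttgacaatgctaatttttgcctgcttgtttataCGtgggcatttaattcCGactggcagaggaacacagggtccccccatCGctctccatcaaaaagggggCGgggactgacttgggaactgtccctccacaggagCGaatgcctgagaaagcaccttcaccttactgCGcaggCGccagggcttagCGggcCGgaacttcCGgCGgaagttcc
Kis2 (chrX:52744594-52744843, - strand): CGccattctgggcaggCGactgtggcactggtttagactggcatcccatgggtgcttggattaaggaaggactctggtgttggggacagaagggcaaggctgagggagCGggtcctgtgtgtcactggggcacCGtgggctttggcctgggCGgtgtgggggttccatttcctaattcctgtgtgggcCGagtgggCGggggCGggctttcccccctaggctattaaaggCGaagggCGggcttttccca
Mamld1 (chrX:71050006-71050255, + strand): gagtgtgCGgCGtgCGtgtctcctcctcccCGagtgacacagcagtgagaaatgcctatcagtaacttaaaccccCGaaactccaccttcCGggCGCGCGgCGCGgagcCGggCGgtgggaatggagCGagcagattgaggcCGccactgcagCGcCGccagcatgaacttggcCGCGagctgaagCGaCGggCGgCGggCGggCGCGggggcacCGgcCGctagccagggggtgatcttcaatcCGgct
The Utp14a and Rbmx2 windows hold 17 and 11 CG dinucleotides. The Kis2 and Mamld1 windows hold 10 and 29. Across the 46 genes the median was 10 (range 0 to 30), against 13.5 for 156 other X-linked genes of the tables and 6 for all 32851 RefSeq windows of this length. At least 1 CG was found in 93.5% of the members' windows and in 92.1% of all windows. At least 10 were found in 24 members (52.2%), in 68.6% of the other X-linked genes and in 37.8% of all windows. The share of the uninduced allelic fraction left at 24 h had a median of 34.2% in the 24 genes with at least 10 CG. In the 21 measured genes with fewer it was 34.9%. Its rank correlation with the CG count was 0.129 over 45 genes (Spearman's rho, a description across genes, which are not independent replicates).

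The region also holds microRNA genes. The RefSeq table gave 18 mature miRNAs of 12 genes that lie inside 7 of the 57 genes. No 2 of the 18 share bases 2 to 8. The transcript C430049B03Rik covers the miR-322, miR-503 and miR-351 genes, whose 5p strands are shown with these bases, the seed, in capitals.
miR-322-5p (chrX:53054306-53054327, - strand): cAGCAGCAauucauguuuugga
miR-503-5p (chrX:53054027-53054049, - strand): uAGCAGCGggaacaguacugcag
miR-351-5p (chrX:53053315-53053338, - strand): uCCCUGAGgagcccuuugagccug
The allelic fraction of C430049B03Rik, defined below as for every gene, was 0.616 in Halo-SMCHD1, 0.772 in LRIF1 KO, 0.723 in E147A, 0.710 in Y353C, 0.775 in G137E and 0.692 in K518E before induction, and 0.105, 0.259, 0.275, 0.243, 0.227 and 0.203 in the same order at 24 h. Every 24 h value lay below every uninduced value. At day 7 the transcript was between 0 and 0.0575 in the 18 libraries.

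The measure throughout is the allelic fraction Xi/(Xi+Xa), the part of a gene's allele-assigned reads that come from the 129S X chromosome, so that 0.5 is equal transcription of both copies and 0 is no detected Xi transcription. The tables give fractions only, and the depth behind each value is unknown. A gene listed at 0 may therefore have few reads. The fraction does not separate less Xi RNA from more Xa RNA. The dox-driven Xist gene itself was between 0.881 and 0.995 in the uninduced libraries and between 0.997 and 0.999 in every later one. No 2 libraries held identical values.

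Before induction the 57 genes were transcribed from both copies much as the rest of the chromosome was. The median over the genes, averaged over the 6 lines, was 0.526 ± 0.0118 (SD, n = 6 lines), with a range of 0.506 to 0.540, against 0.518 ± 0.00471 for the other genes. The members' median was above that of the other genes in every line but Halo-SMCHD1. Averaged over lines, 45 genes were between 0.4 and 0.6, 8 were above 0.6 and 4 were below 0.4. Frmd7, which encodes a FERM-domain protein of neurons, stood apart, with 0.0106, 0, 0, 0.0172, 0.0132 and 0.00495 in Halo-SMCHD1, LRIF1 KO, E147A, Y353C, G137E and K518E. It was read almost wholly from the Cast copy before Xist was induced, so its later values say little about silencing, and no share of the uninduced value was computed for it. Above 0.6 in all 6 lines were Utp14a (0.638 to 0.663), Rbmx2 (0.630 to 0.733), C430049B03Rik (0.616 to 0.775), Firre (0.604 to 0.645), Zdhhc9 and Gabra3, a GABA-A receptor subunit.

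After 24 h of dox the Xi fraction was lower in the region than over the rest of the chromosome. The members' median was 0.182 ± 0.0177 (SD, n = 6 lines; 0.157 in K518E to 0.198 in G137E), while that of the other genes was 0.279 ± 0.0256 (0.237 to 0.301). The members' median was the lower in 6 of 6 lines, and the 2 ranges did not overlap. Genes from 20 to 45 Mb had line medians of 0.243 to 0.291 and genes from 72.5 to 80 Mb of 0.229 to 0.308, so the neighbouring stretches on both sides were like the other genes and above every value of the region. As a share of each gene's own uninduced value, the members kept a median of 35% at 24 h (quartiles 24.7 and 45%, range 12.9 to 75.8%, 56 genes), the other 195 genes kept 54.0%, and 46 of the 56 (82.1%) lay below that. The 3 runs were alike, at 33.9% in the Smarca1 to Mospd1 run, 35.3% in the run that begins with Zfp449 and 34.8% in the Fmr1 to Gabra3 run. These are descriptions across genes of one chromosome, which share their libraries, and carry no test.

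**Figure D1:**
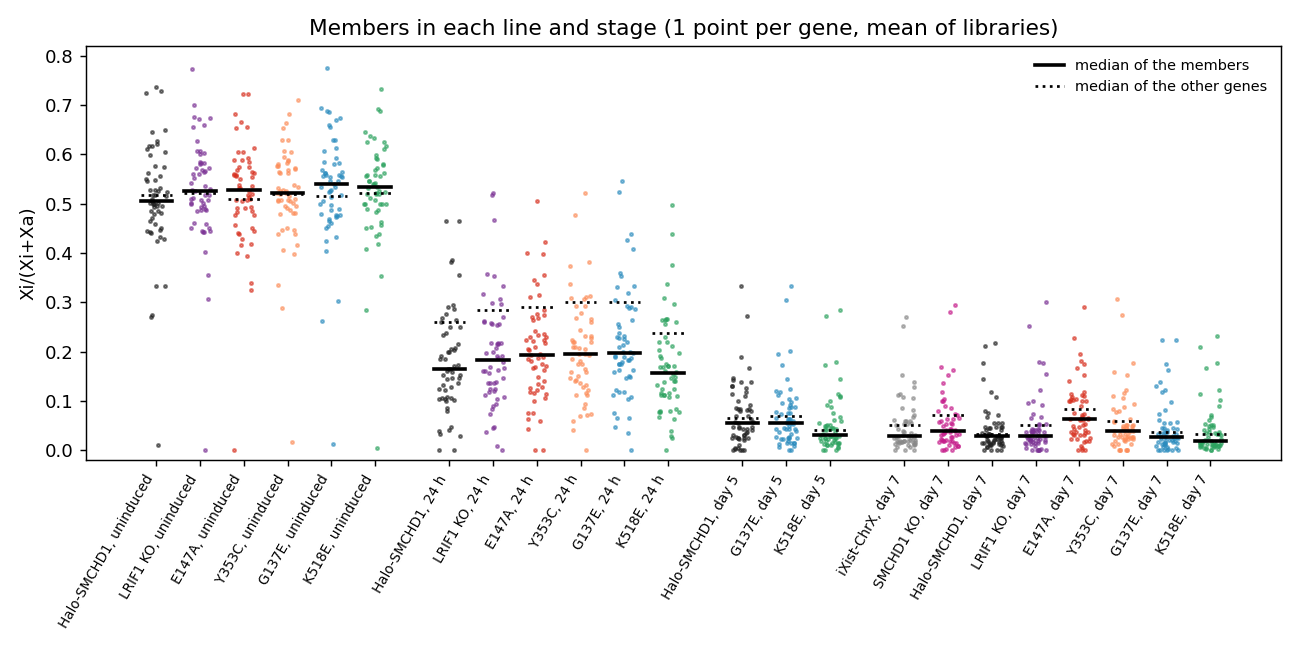
Xi/(Xi+Xa) of the genes from 45 to 72.5 Mb in each line and stage (vertical axis, fraction; 1 point per gene, the mean of its libraries), with the median of these genes as a solid bar and that of the other X-linked genes as a dotted bar. At 24 h the solid bars lie between 0.157 and 0.198 and the dotted bars between 0.237 and 0.301, and the distance is smaller at days 5 and 7.

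The genes that held on longest at 24 h were Utp14a, Rbmx2 (an RNA-binding protein of the spliceosome), Bcorl1 (a transcriptional corepressor of the BCOR family), Vma21 (an assembly factor of the vacuolar proton pump) and Mmgt1 (a subunit of the ER membrane protein complex). Utp14a (chrX:48256933-48282449, + strand, whole transcript span) read 0.465, 0.521, 0.506, 0.522, 0.525 and 0.439 in Halo-SMCHD1, LRIF1 KO, E147A, Y353C, G137E and K518E. That is 75.8 ± 4.49% of its uninduced value (SD, n = 6 lines). Rbmx2 (chrX:48695003-48710719, + strand) kept 67.8 ± 7.22%, Bcorl1 64.8 ± 7.41%, Vma21 62.5 ± 8.39% and Mmgt1 61.1 ± 7.69%. The ranges over lines of neighbours in this order overlapped, as with Rbmx2 (58.4 to 76.7%) and Bcorl1 (55.2 to 77.2%). At the other end, Kis2, a noncoding transcript that overlaps Mir106a in GENCODE, kept 12.9 ± 8.26%, Mamld1 (a mastermind-like coactivator) 14.5 ± 8.56%, Igsf1 (an immunoglobulin-domain membrane glycoprotein) 14.7 ± 16.2%, Gabre (the epsilon subunit of the GABA-A receptor) 16.1 ± 6.90% and Mtap7d3 (now Map7d3, a microtubule-associated protein) 17.3 ± 6.56%. Kis2 read 0.275, 0.461, 0.419, 0.407, 0.403 and 0.409 before induction in the same line order and 0.0795, 0.0465, 0.0584, 0.0412, 0.0341 and 0.0249 at 24 h. These 2 sets of 5 genes were picked on the means of these same shares, so their separation was largely set by the choice. No line of the slow set (50.3% at the lowest) came as low as any line of the fast set (44.1% at the highest, Igsf1 in G137E).

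**Figure D2:**
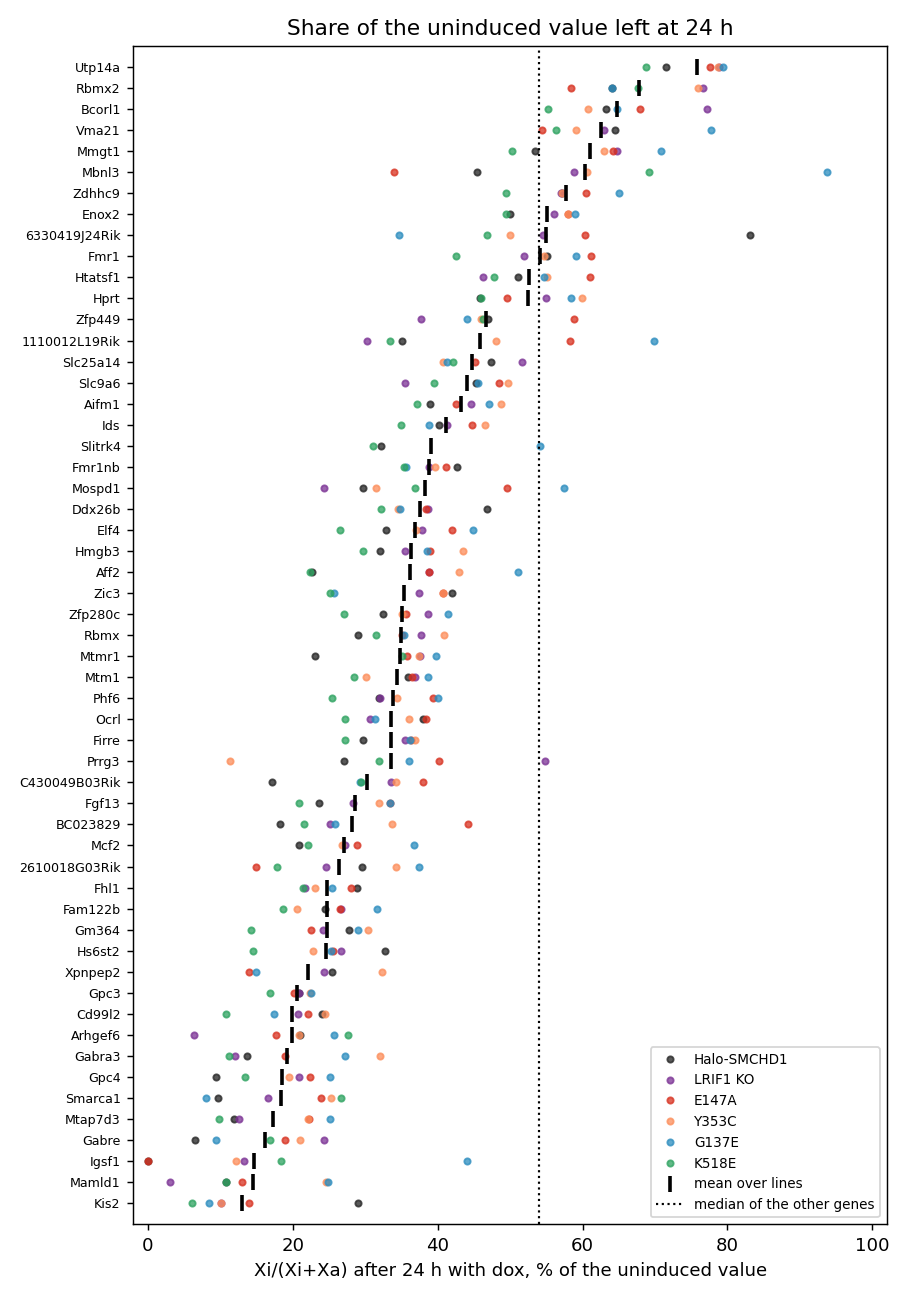
Percent of the uninduced Xi/(Xi+Xa) left after 24 h of dox (horizontal axis) for 55 of the genes, sorted by the mean over lines (points: lines; black ticks: means; dotted line: median of the other X-linked genes, 54.0%). Most of the means lie left of the dotted line, from Kis2 at 12.9% at the bottom to Utp14a at 75.8% at the top.

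Genes with very different losses lay side by side. From Zdhhc9, a palmitoyltransferase, to Enox2, a cell-surface NADH oxidase, 9 measured genes follow one another. Zdhhc9 kept 57.7%, Utp14a 75.8% and Bcorl1 64.8%. The next 4, Elf4 (an ETS transcription factor), Aifm1 (a mitochondrial flavoprotein that can trigger cell death), Zfp280c and Slc25a14 (a mitochondrial carrier), kept 36.8, 43.2, 35.1 and 44.7%, and Rbmx2 and Enox2 again kept 67.8 and 55.1%. The order of the genes was much the same from line to line. Each line's shares at 24 h had a rank correlation of 0.812 (G137E) to 0.914 (K518E) with the mean of the other lines over 54 genes. Over 56 genes the share at 24 h correlated at -0.251 with gene length and at 0.145 with the distance to Xist. With the uninduced value, by which each share is divided, it correlated at 0.249 (Spearman's rho, across genes that share their libraries). None of these relations was tested.

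By role, the 6 measured genes of RNA export, splicing and translation kept a median of 57.2% at 24 h (34.9 to 75.8%), and the 2 genes reported to escape kept 33.6% (Firre) and 75.8% (Utp14a, also among the 6). The 5 transcription factors kept 36.1%, the 4 chromatin genes 35.1% (from Smarca1, an ISWI remodeller, at 18.3% to Bcorl1 at 64.8%) and the 3 phosphoinositide phosphatases Ocrl, Mtm1 and Mtmr1 33.6, 34.4 and 34.8%. The 2 genes of purine salvage and lysosomal degradation, Hprt and Ids, kept 52.4 and 41.1%. Lowest were the 3 genes of heparan sulfate proteoglycans, Gpc4 at 18.5%, Gpc3 at 20.6% and Hs6st2, a heparan 6-O-sulfotransferase, at 24.6%. Gpc3, a glypican that binds growth factors, had the narrowest spread of shares over the lines (SD 2.09 percentage points), with 0.494, 0.501, 0.491, 0.502, 0.500 and 0.499 before induction and 0.103, 0.105, 0.0989, 0.113, 0.113 and 0.0839 at 24 h in Halo-SMCHD1, LRIF1 KO, E147A, Y353C, G137E and K518E. The median of the 56 measured members was 35%.

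The fall at 24 h was tested as a paired difference in the 5 lines that share a table, on the log2 odds scale, log2((fraction + 0.01)/(1 - fraction + 0.01)), with limma and Benjamini-Hochberg adjustment over all 249 genes of that table. All 56 members of the table were called lower. Of all genes tested 96% were called, 1 of them higher, so the count says little about the region. The median change was -2.18 for the members and -1.57 for all genes. Utp14a changed by -0.88 ± 0.0789 (SE, adjusted p = 5.35e-05), Firre by -2.49 ± 0.102 (adjusted p = 2.45e-06), Gpc3 by -2.94 ± 0.0717 (adjusted p = 1.31e-06) and Kis2 by -3.37 ± 0.295 (adjusted p = 4.70e-05), each lower in 5 of 5 lines. For Frmd7 the change was -0.75 ± 0.263 (adjusted p = 0.0295), from 0 in 2 of the 5 lines before induction and with all 5 at 0 afterwards, and the size of its change depends on the pseudocount.

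By day 5 the Xi fraction of most of the genes was below 0.1. The members' median was 0.0477 ± 0.0138 (SD, n = 3 lines) against 0.0590 ± 0.0151 for the other genes, with K518E lowest at 0.0317 and Halo-SMCHD1 and G137E at 0.0553 and 0.0560. Members above 0.1 numbered 14 in Halo-SMCHD1, 12 in G137E and 8 in K518E. The share of the uninduced value had a median of 9.09%, against 11.3% for the other genes, and 32 of 56 members (57.1%) lay below that, so the distance from the rest of the chromosome was smaller than at 24 h. Igsf1 was listed at 0 in all 6 day 5 libraries.

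At day 7 the members' median was 0.0341 ± 0.0133 (SD, n = 8 lines), from 0.0196 in K518E to 0.0626 in E147A, against 0.0525 ± 0.0187 for the other genes, and it was the lower in 8 of 8 lines. It was also below the median of the 20 to 45 Mb stretch in 8 of 8 lines and below that of the 72.5 to 80 Mb stretch in 7 of 8, the exception being Halo-SMCHD1 (0.0278 against 0.0234). Replicates 2 and 3 of Halo-SMCHD1 had member medians of 0.0306 and 0.0333, while replicate 1 had 0.0171 and 16 members listed at 0, more than the other day 7 libraries (4 to 11). The 2 E147A libraries differed as much, at 0.0394 for replicate 1 and 0.0853 for the other, the highest of the 18. The members kept a median of 6.49% of the uninduced value over the 6 lines sampled before induction, against 9.71% for the other genes, and 38 of 56 (67.9%) lay below that. Between 24 h and day 7 the members' and all genes' median changes were close, at -2.42 and -2.48 log2 odds. In this step 53 of 56 members were called lower (limma, paired over 5 lines), against 95.6% of all genes called in either direction. The exceptions were Igsf1 at -1.96 (adjusted p = 0.0514), Frmd7 at 0.75 (adjusted p = 0.0975) and Mamld1 at -0.20 (adjusted p = 0.648).

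Genes with a high share of the uninduced value at 24 h tended to have a high share at day 7, with exceptions. Shares at 24 h and at day 7 had a rank correlation of 0.697 over 56 genes. In the Halo-SMCHD1 line the 5 highest day 7 means were Utp14a, Rbmx2, 6330419J24Rik (now Smim10l2a, a small membrane protein), Firre and Mospd1, a motile-sperm-domain protein. Of these, only Utp14a and Rbmx2 were among the 5 highest shares at 24 h. 6330419J24Rik, Firre and Mospd1 had kept 54.9, 33.6 and 38.2% at 24 h. Utp14a read 0.224, 0.205 and 0.224 in the 3 Halo-SMCHD1 libraries (mean 0.218 ± 0.0113, SD) and between 0.198 and 0.328 in all 18 libraries. Rbmx2 read 0.171, 0.205 and 0.259 in Halo-SMCHD1 (0.212 ± 0.0447) and 0.150 to 0.354 over the 18. These 2 were the only members with a mean above 0.2 in each of the 8 lines. Means of 6330419J24Rik, Firre and Mospd1 in Halo-SMCHD1 were 0.177 ± 0.0477, 0.144 ± 0.0401 and 0.119 ± 0.0140 (SD, n = 3), and the libraries of neighbours in this order overlapped. The lowest were Frmd7, Slitrk4 (a neuronal transmembrane protein) and Prrg3 (a Gla-domain membrane protein), each listed at 0 in all 3 Halo-SMCHD1 libraries.

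**Figure D3:**
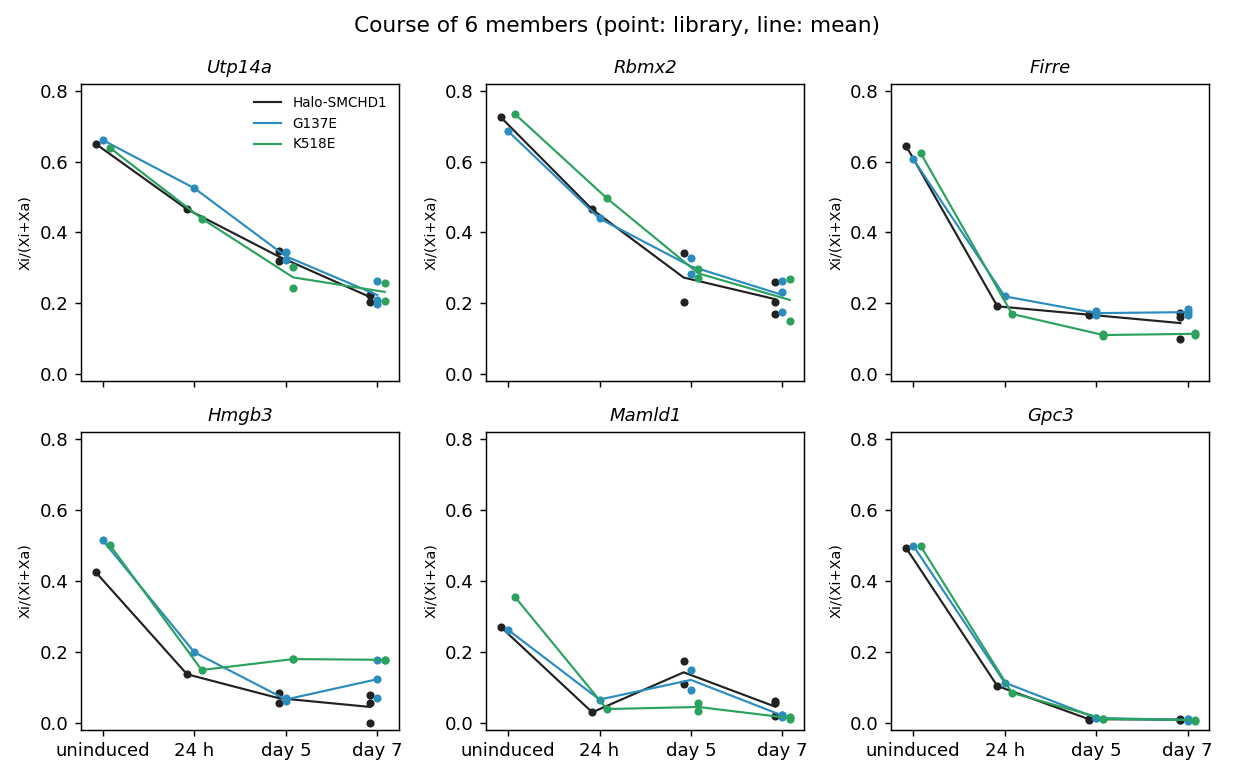
Xi/(Xi+Xa) of 6 genes through the 4 stages in the 3 lines sampled at day 5 (horizontal axis: stage; vertical axis: fraction; points: libraries; lines: means of a line). Utp14a and Rbmx2 decline in steps, Firre falls mostly before 24 h, Gpc3 is near 0 from day 5, Mamld1 is higher at day 5 than at 24 h in Halo-SMCHD1 and G137E, and Hmgb3 stays at 0.148 to 0.180 in K518E.

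Firre, Bcorl1 and Mamld1 departed from a steady decline. Firre (chrX:50555743-50635258, - strand) fell mostly within the first 24 h. It read 0.191, 0.215, 0.223, 0.223, 0.220 and 0.170 at 24 h in Halo-SMCHD1, LRIF1 KO, E147A, Y353C, G137E and K518E, 0.169 and 0.167 in Halo-SMCHD1 at day 5, and 0.0982, 0.173 and 0.161 in Halo-SMCHD1 at day 7. It kept 33.6% of its uninduced value at 24 h and 26.0 ± 4.66% at day 7 (SD, n = 6 lines), and its change after 24 h was -0.41 ± 0.137 log2 odds (limma, adjusted p = 0.0232). Bcorl1 did the reverse. It kept 64.8% at 24 h and 7.60 ± 2.46% at day 7, a change of -3.62 ± 0.201 (adjusted p = 1.27e-05). Mamld1 was lower at 24 h than at day 5 in Halo-SMCHD1 (0.0290 at 24 h, then 0.174 and 0.110) and in G137E (0.0649, then 0.0923 and 0.149), and fell by day 7 to 0.0189, 0.0543 and 0.0618 in Halo-SMCHD1 and to 0.0156, 0.0217 and 0.0220 in G137E. In K518E it read 0.0382 at 24 h, 0.0558 and 0.0323 at day 5 and 0.0145 and 0.0111 at day 7. The rise from 24 h to day 5 rests on 1 library per line at 24 h and was not tested.

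The step from day 5 to day 7 was compared in the 3 lines sampled at both, with limma over all differentiated libraries of the table. In Halo-SMCHD1, 29 of 56 members were lower in every day 7 library than in either day 5 library and 1 was higher (52.1% of all genes did not overlap), and 4 were called lower (9.5% of all genes called). These were Mamld1 (-1.69 ± 0.435, adjusted p = 0.0387), Bcorl1 (-1.43 ± 0.309, adjusted p = 0.0282), Enox2 (-1.39 ± 0.244, adjusted p = 0.0254) and Zdhhc9 (-1.17 ± 0.283, adjusted p = 0.0331). Enox2 read 0.0821 and 0.0788 at day 5 and 0.0198, 0.0255 and 0.0359 at day 7. In G137E, 29 members were lower without overlap and none higher (47.1% of all genes), and 5 were called lower (7.44%), Cd99l2 (a CD99-like adhesion protein, -2.44 ± 0.494), Mamld1 (-2.26 ± 0.435), Bcorl1 (-1.69 ± 0.309) and Enox2 (-1.18 ± 0.244), each with adjusted p = 0.0241, and Fam122b (-1.29 ± 0.327, adjusted p = 0.0493). Of these, 3 genes were called in both lines. In K518E, 29 members were lower without overlap (48.8%), and limma called none (0.413% of all genes called). At unadjusted p under 0.05, the members numbered 22 in Halo-SMCHD1 (36.4% of all genes), 21 in G137E (31% of all genes) and 5 in K518E (4.55% of all genes). The counts of calls are fragile. In Halo-SMCHD1 they were 0 without either day 5 library and 1 without day 7 replicate 1, and in G137E they were 12 without day 7 replicate 3 and 0 without any other library of the pair.

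The comparison of SMCHD1 KO with iXist-ChrX at day 7 asks what the genes do without SMCHD1. The region's line median was 0.0394 in SMCHD1 KO and 0.0287 in iXist-ChrX, and that of the other genes 0.0705 and 0.0521. Of 56 members 10 were higher in both SMCHD1 KO libraries than in both iXist-ChrX libraries and 3 were lower, while 35.3% of all genes did not overlap in either direction. Limma called no member at an adjusted p under 0.05 (0.803% of all genes called), and 6 had an unadjusted p under 0.05 (13.7% of all genes). Vma21 read 0.175 and 0.152 in SMCHD1 KO and 0.0805 and 0.0616 in iXist-ChrX, without overlap, a difference of 1.25 ± 0.407 log2 odds (adjusted p = 0.25). Enox2 read 0.0648 and 0.113 against 0.0648 and 0.0356 (0.78 ± 0.359, adjusted p = 0.363). Gm364 went the other way, with 0.0164 and 0 against 0.0339 and 0.0732 (-1.96 ± 0.818, adjusted p = 0.315). One member was called lower without SMCHD1 KO replicate 1.

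In LRIF1 KO and Halo-SMCHD1 the line medians of the region were close, at 0.0283 and 0.0278, while the other genes were at 0.0508 and 0.0329. The libraries within each line differed more than this. Their member medians were 0.0190 and 0.0397 in LRIF1 KO and 0.0171, 0.0306 and 0.0333 in Halo-SMCHD1. No overlap between the 2 LRIF1 KO and the 3 Halo-SMCHD1 libraries was found for 8 members that were higher and 2 that were lower (24.1% of all genes). Limma called none (0% of all genes called), and 4 members had an unadjusted p under 0.05 (11.2% of all genes). Enox2 was 0.0449 and 0.0605 against 0.0198, 0.0255 and 0.0359 (0.81 ± 0.328, adjusted p = 0.380). Vma21 was 0.139 and 0.104 against 0.0662, 0.0658 and 0.0822 (0.76 ± 0.372, adjusted p = 0.440). Mospd1 was 0.0570 and 0.0442 against 0.111, 0.135 and 0.110 (-1.20 ± 0.493, adjusted p = 0.380), and Arhgef6, an exchange factor for Rac and Cdc42, was listed at 0 in both LRIF1 KO libraries against 0.0244, 0.0889 and 0.0278.

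Among the comparisons between lines, E147A gave the largest number of calls in the region. Of 56 members, 27 were higher in both E147A libraries than in all 3 Halo-SMCHD1 libraries and 1 was lower, against 46.6% of all genes without overlap, and limma called 9 members higher and none lower, 16.1% of the 56. Among all genes tested 16.1% were called, so the share in the region was that of the chromosome. Members above 0.1 at day 7 numbered 11 in E147A replicate 1 and 23 in the E147A library without a matched number, and 4, 7 and 7 in the Halo-SMCHD1 libraries. Of the other genes, 29.5 and 52.8% were above 0.1 in the E147A libraries and 17.9, 17.9 and 22.6% in those of Halo-SMCHD1. Enox2 was read at 0.0961 and 0.123 in E147A (replicate 1 first, here and below) and at 0.0198, 0.0255 and 0.0359 in Halo-SMCHD1. Its difference was 1.83 ± 0.328 log2 odds, the lowest adjusted p of the 9 (0.00569). Mtmr1, a myotubularin phosphatase, was at 0.108 and 0.107 against 0.00752, 0.0441 and 0.0473 (1.75 ± 0.527, adjusted p = 0.0389), with both E147A values above all others. Aifm1 was at 0.0553 and 0.0963 against 0.0171, 0.0385 and 0.0167 (1.43 ± 0.424, adjusted p = 0.0389). Vma21 was at 0.119 and 0.217 against 0.0662, 0.0658 and 0.0822 (1.23 ± 0.372, adjusted p = 0.0389). Among the 9, Gabre showed the largest difference, 2.39 ± 0.721 (adjusted p = 0.0389), and also the widest gap between E147A libraries, with 0.0308 and 0.168 against 0, 0.0240 and 0.00685.

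The remaining 4 calls were of genes at lower levels. Ids, the lysosomal iduronate sulfatase, was at 0.0329 and 0.0667 against 0.00760, 0.0199 and 0.0187 (1.26 ± 0.398, adjusted p = 0.0465). Gpc4 was at 0.0279 and 0.0347 against 0.00531, 0.0136 and 0.0133 (1.05 ± 0.307, adjusted p = 0.0389). Mtap7d3 was at 0.0254 and 0.0137 against 0, 0 and 0.00405 (1.40 ± 0.403, adjusted p = 0.0389), and Fhl1, a LIM-domain protein of muscle, was at 0.0254 and 0.0495 against 0.0190, 0.0135 and 0.0159 (0.85 ± 0.257, adjusted p = 0.0392). The number of calls turns on single libraries. It was 0 without the E147A library with no matched number, 20 without E147A replicate 1, 1 without Halo-SMCHD1 replicate 1, 5 without Halo-SMCHD1 replicate 2 and 0 when only the 5 libraries compared entered the fit, where the number of residual degrees of freedom is smaller. With a pseudocount of 0.001 it was 1.

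**Figure D4:**
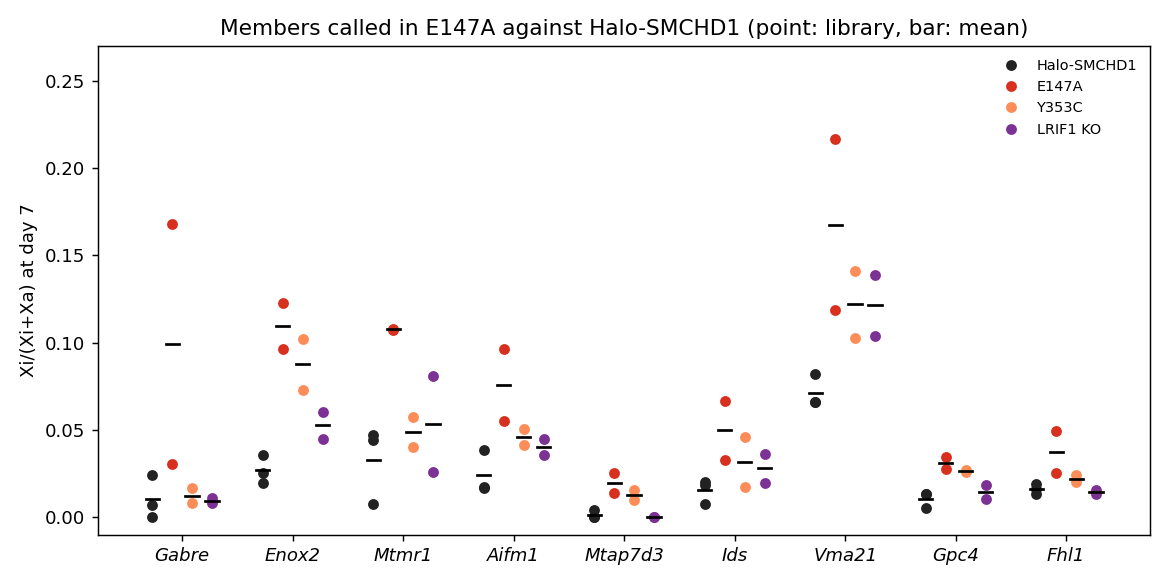
Xi/(Xi+Xa) at day 7 of the 9 genes called higher in E147A than in Halo-SMCHD1 (vertical axis: fraction; each point is 1 library; bars: group means), with Y353C and LRIF1 KO beside them. The 2 E147A libraries lie above the 3 Halo-SMCHD1 libraries in each of the 9 genes, from Mtap7d3 at 0.0254 and 0.0137 to Vma21 at 0.119 and 0.217.

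Y353C differed from Halo-SMCHD1 in the same direction with fewer calls. No overlap was found for 22 members, each higher in Y353C (42.2% of all genes). Limma called 1 (3.61% of all genes called), Enox2 at 0.0732 and 0.102 against 0.0198, 0.0255 and 0.0359 (1.50 ± 0.328, adjusted p = 0.0217), and 6 members had an unadjusted p under 0.05 (19.7% of all genes). Enox2 was no longer called without any one of Y353C replicate 1, Y353C replicate 2, Halo-SMCHD1 replicate 1 and Halo-SMCHD1 replicate 2, nor with only the 5 libraries compared. Compared directly, E147A and Y353C differed without overlap in 16 members that were higher in E147A and 7 that were lower (30.5% of all genes), and limma called none (0% of all genes called), with 2 members at an unadjusted p under 0.05 (4.42% of all genes). Gabre (2.10 ± 0.790, adjusted p = 0.709) was at 0.0308 and 0.168 in E147A and at 0.00806 and 0.0165 in Y353C. Mamld1 (1.64 ± 0.797, adjusted p = 0.767) was at 0.0252 and 0.212 against 0.0195 and 0.0239, so that 1 E147A library carried the difference.

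Halo-SMCHD1 was also set beside iXist-ChrX at day 7. In this comparison the Halo-tag, the eGFP-CIZ1 transgene and the clone cannot be told apart. In 11 members the 3 Halo-SMCHD1 libraries lay below both iXist-ChrX libraries and in 1 above (27.3% of all genes without overlap). Limma called none (0% of all genes called), with 4 members at an unadjusted p under 0.05 (11.6% of all genes). Utp14a was at 0.224, 0.205 and 0.224 in Halo-SMCHD1 and at 0.298 and 0.244 in iXist-ChrX (-0.40 ± 0.264, adjusted p = 0.539), Htatsf1, a splicing and elongation factor, at 0.0493, 0.0751 and 0.0417 against 0.125 and 0.102 (-1.03 ± 0.558, adjusted p = 0.481), and Hmgb3, a high-mobility-group DNA-binding protein, at 0.0781, 0.0544 and 0 against 0.175 and 0.0824 (-1.90 ± 0.825, adjusted p = 0.420).

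G137E was close to Halo-SMCHD1 in the region at both days. At day 7 the line medians were 0.0271 and 0.0278, 1 member was higher and 2 were lower without overlap (5.37% of all genes), and limma called none (0% of all genes called), with 3 members at an unadjusted p under 0.05 (8.26% of all genes). Arhgef6 was listed at 0 in the 3 G137E libraries against 0.0244, 0.0889 and 0.0278 in Halo-SMCHD1 (-2.40 ± 0.743, adjusted p = 0.543). At day 5, 5 members were higher and 7 lower without overlap (24% of all genes), and limma called none (0% of all genes called), with 2 members at an unadjusted p under 0.05 (2.89% of all genes).

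K518E stood lower than Halo-SMCHD1 at day 5. The 33 members that were lower in both K518E libraries than in both Halo-SMCHD1 libraries compare with 3 that were higher, and 66.5% of all genes did not overlap, so the pattern was that of the whole chromosome. Limma called no member (0.413% of all genes called), and 7 had an unadjusted p under 0.05 (12.8% of all genes). Mamld1 read 0.0558 and 0.0323 in K518E and 0.174 and 0.110 in Halo-SMCHD1 (-1.65 ± 0.476, adjusted p = 0.211), Enox2 0.0395 and 0.0412 against 0.0821 and 0.0788 (-0.90 ± 0.267, adjusted p = 0.211) and Elf4 0.0230 and 0.0244 against 0.172 and 0.106 (-2.29 ± 1.16, adjusted p = 0.353). At day 7 the separation was smaller, with 8 members lower and 3 higher (17.8% of all genes), no call by limma (0% of all genes called) and 3 members at an unadjusted p under 0.05 (4.96% of all genes). The K518E effect at day 5 minus that at day 7, tested as an interaction, was called for no member (0.413% of all genes called), and 3 members had an unadjusted p under 0.05 (7.02% of all genes). For Enox2, at -0.90 at day 5 and 0.26 at day 7, it was -1.16 ± 0.361 (adjusted p = 0.381).

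Hmgb3 was higher in K518E than in Halo-SMCHD1 without overlap at both days, one of the 3 such members at each. It read 0.500 before induction, 0.148 at 24 h, 0.180 and 0.179 at day 5 and 0.178 and 0.176 at day 7, so it did not decline further after 24 h. In Halo-SMCHD1 it read 0.425, 0.136, then 0.0547 and 0.0833 at day 5 and 0.0781, 0.0544 and 0 at day 7. The K518E libraries lay above those of Halo-SMCHD1 at both days, by 1.46 ± 0.879 (adjusted p = 0.376) and 2.50 ± 0.802 log2 odds (adjusted p = 0.454). The G137E libraries, at 0.176, 0.0693 and 0.122 at day 7, overlapped those of Halo-SMCHD1. The highest G137E value lay just below the lower K518E value. Halo-SMCHD1 was the low line at day 7, where Hmgb3 kept 10.4% of its uninduced value. It kept 14.5% in E147A, 20.4% in LRIF1 KO, 20.8% in Y353C, 23.8% in G137E and 35.4% in K518E. In the opposite direction, 6330419J24Rik was at 0.202 and 0.145 in K518E at day 5 and at 0.0734 and 0.0629 at day 7, against 0.231, 0.140 and 0.160 in Halo-SMCHD1 at day 7 (-1.41 ± 0.306, adjusted p = 0.122). Firre was likewise at 0.111 and 0.117 in K518E at day 7, below G137E (0.167 to 0.182) in all libraries and within the range of Halo-SMCHD1.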

How the data were processed

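Allelic ChrRNA-seq ratios of X-linked genes were analysed in 36 mESC libraries. The authors discarded rRNA reads with bowtie2, mapped the rest with STAR to mm10 masked at strain SNPs, kept unique alignments, split reads by parental SNP with SNPsplit and counted them by strand over whole transcript spans with featureCounts, requiring 10 SNP-covering reads per gene. They deposited the result as a fraction, Xi/(Xi+Xa), per gene and library. Read numbers behind a fraction are unknown, so no counting interval was computed, and strain differences in mappability could shift a gene's fraction alike in all lines. Per the labels, iXist-ChrX replicate 1 was rebuilt from an earlier alignment.

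Fractions were analysed as log2((fraction + 0.01)/(1 - fraction + 0.01)) with limma 3.58.1 (R 4.3.3), separately in each table (249 genes in 30 libraries, 242 genes in 20). Line comparisons were fitted over all differentiated libraries of a table, and the steps from uninduced to 24 h and from 24 h to day 7 were paired by line over 5 lines. Calls were made at a Benjamini-Hochberg adjusted p under 0.05 over all genes of the table. The fit was tested on simulated data. For E147A at day 7 (249 genes), changes of 1, 2 and 3 log2 odds were recovered in 17.8, 69.4 and 86.0% of cases. False calls made up 7.76, 2.91 and 4.62% of the calls. The simulated noise was independent between genes and libraries, so it does not mimic a shift of 1 whole library. The share of the uninduced value left is the fraction divided by the same line's uninduced fraction, averaged over lines. It is not a share of Xi RNA, because Xa reads stand in the denominator of the fraction. Named genes were the 5 highest and lowest shares at 24 h, the highest and lowest day 7 levels in Halo-SMCHD1, the called members and the uncalled members with the largest differences among those without overlap. Others named for their course, for their neighbours or for their place in a gene list were chosen after their values were seen. The members and gene lists were chosen with earlier results of these data known. Genes were annotated from GENCODE vM21, and sequences are from RefSeq (GRCm38.p6). Alternatives were other pseudocounts, untransformed fractions, other sets of libraries or genes, a robust fit, a replicate block and leaving out each library. One member is counted among the 57 but not reported here by name.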

Additional observations from a re-analysis of the deposited data

How the results depend on the processing

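Of 228 alternative values for 20 results, 195 differed little, which for a count of calls means within 1.5 times of the reported count, and 13 results did so under every alternative tried. Counts of 0 that stayed 0 are part of this, as are the early steps in which nearly all genes were called. The tally is therefore no measure of robustness. Every comparison of lines, or of day 5 with day 7, that had a call changed under at least 1 alternative. The 9 members called in E147A at day 7 became 1 with a pseudocount of 0.001, 0 with only the libraries compared, 2 with a replicate block and 0 to 20 when 1 library was left out. The 1 call in Y353C became 0 with only the libraries compared and was 0 to 1 when 1 library was left out. The comparison of SMCHD1 KO with iXist-ChrX gave 0 to 1 calls when 1 library was left out. For the step from day 5 to day 7 in Halo-SMCHD1, the 4 calls became 0 with a pseudocount of 0.001, 7 with 0.05, 11 on untransformed fractions, 1 with only the libraries compared, 15 with a replicate block and 0 to 4 when 1 library was left out. In G137E the 5 calls became 0, 11, 13, 0 and 13 under the same settings and 0 to 12 when 1 library was left out. Fits that left a group with 1 library assume that it varies like the other groups. The mean in place of the median over the genes gave 0.0656 at day 5 and 0.0526 at day 7.

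Among single named genes, Mbnl3 in E147A against Y353C changed sign with a replicate block (0.18), and Mamld1 at day 7 against 24 h changed sign on untransformed fractions (0.00228), without the G137E line (0.10) and without the Y353C line (0.10), within a range of -0.47 to 0.10 over leaving out 1 line. The cause was not tested. The main fits did not pair libraries by replicate number. Of 25 same-numbered pairs, 4 had correlated deviations with r over 0.1 (range -0.277 to 0.146). In a group of 2 libraries the deviations mirror each other, so these pairs are not independent and cannot decide whether the numbers pair libraries. With the crossed pairing of the SMCHD1 KO and iXist-ChrX numbers, added after seeing the data, 0 members and 2 of 249 genes were called. Depth is unknown, so it cannot be said which low fractions rest on few reads.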
